A study of Homo sapiens with 6 samples.

Results

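The 7 genes described here are the Hedgehog receptors and GLI factors PTCH1, SMO, SUFU, GLI1, GLI2, GLI3 and HHIP. They were chosen by gene symbol, 7 of the 57820 annotated genes in the deposited table. A repeated symbol would have been settled by its larger mean count, but each of the 7 symbols stood on a single row, so no measured value entered the choice of rows. The genes were proposed with earlier results of the same comparison in view, so their values and p-values below describe them and are no independent evidence.

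The RNA came from U2OS, a human osteosarcoma cell line in wide use, kept in medium with serum, and its polyadenylated fraction was sequenced. In 1 group, 3 libraries came from cells given 5 µM NMS-873 for 4 h, which inhibits VCP (p97), an ATPase that extracts proteins tagged with ubiquitin for degradation. In the other, 3 libraries came from cells given the solvent, 0.05% DMSO, for 4 h. No Hedgehog ligand or agonist is named among the treatments, and no label states that replicate libraries stem from different cultures; the p-values therefore reflect spread among these libraries that may be technical.

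In Hedgehog signalling, the receptor PTCH1 holds the membrane protein SMO inactive at the primary cilium, a sensory projection of the cell surface. When a ligand such as SHH or IHH binds PTCH1, SMO is released, and the transcription factors GLI2 and GLI3 are no longer held by the inhibitor SUFU or trimmed by the ubiquitin-proteasome system into repressors. GLI1, PTCH1 and HHIP, a ligand trap at the cell surface, are themselves classic targets of the pathway, so that GLI1 amplifies the signal and PTCH1 and HHIP damp it. In bone, IHH controls the growth plate and the formation of osteoblasts.

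The files give 1 value per gene and library, and the promoters of the 2 members at the ends of the range of change are shown because both are feedback genes of the same pathway that moved in opposite directions. RefSeq promoter windows (GRCh38.p14, 250 bases before to 50 bases after a gene start, gene strand) were matched for 5 of the 7 genes, PTCH1, HHIP, SMO, SUFU and GLI2, with 10 windows in all, 5 of them for PTCH1; GLI1 and GLI3 were not matched. The windows were searched on both strands for the GLI-binding sequence TGGGTGGTC, the cyclic AMP response element TGACGTCA, the C/EBP-ATF composite element TGATGNAAN (N for any base) and the E-box CACGTG. The capitals mark the GLI-binding sequence in 1 of the 5 PTCH1 windows, at chr9:95509217-95509516 (minus strand), 172 bases before the start that this window is set on. In the HHIP window at chr4:144645906-144646205 (plus strand) they mark the cyclic AMP response element, 75 bases before the start. The start of that PTCH1 window was not matched to the gene start given below in another build (hg19).
PTCH1: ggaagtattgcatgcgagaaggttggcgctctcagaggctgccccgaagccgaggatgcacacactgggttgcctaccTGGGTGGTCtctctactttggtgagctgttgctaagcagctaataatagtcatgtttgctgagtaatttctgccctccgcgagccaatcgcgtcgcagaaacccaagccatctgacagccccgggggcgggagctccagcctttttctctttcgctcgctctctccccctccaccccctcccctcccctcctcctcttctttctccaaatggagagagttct
HHIP: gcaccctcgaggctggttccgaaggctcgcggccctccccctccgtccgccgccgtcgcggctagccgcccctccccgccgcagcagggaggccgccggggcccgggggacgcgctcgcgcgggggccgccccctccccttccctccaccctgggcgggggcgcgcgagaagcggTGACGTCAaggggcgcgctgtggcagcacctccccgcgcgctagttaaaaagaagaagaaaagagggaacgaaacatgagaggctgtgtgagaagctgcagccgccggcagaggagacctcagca

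Of all 35116 promoter windows, 0.236% held the GLI-binding sequence and 1.85% the cyclic AMP response element. The GLI-binding sequence was in no other window of the members, HHIP included, and the cyclic AMP response element in none but that of HHIP; the composite element (3.61% of all windows) and the E-box (7.26%) were in none of the 10, and the marked motifs do not overlap another of those searched. A match of letters is a description and does not show that a factor binds there. Of 30 tested genes with the GLI-binding sequence in a window, PTCH1 among them, 8 were lower and 3 higher with NMS-873. Their median log2 fold change was -0.05. Of 381 tested genes with the cyclic AMP response element, HHIP among them, 105 were lower and 85 higher. Their median was -0.05 too. Of all genes tested, 33.0% were lower and 14.9% higher, with a median of -0.10.

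With NMS-873, 6 of the 7 genes were lower and 1, HHIP, was higher. PTCH1 fell furthest, 2.71-fold, followed by GLI2 and SUFU at 1.54-fold and 1.49-fold, GLI1 and GLI3 at 1.32-fold and 1.28-fold, and SMO at 1.13-fold, while HHIP rose 1.39-fold. All 7 passed the minimum of 10 mean normalised counts, and all 7 passed an adjusted p of 0.05 in limma fitted across 14889 genes. Over all genes tested, 33.0% were called lower and 14.9% higher, 47.9% together. The median over the 7 members was -0.40 on the log2 scale, and that over all tested genes -0.10. In none of the 7 did the 3 NMS-873 libraries overlap the 3 DMSO libraries, a separation that 37.2% of all tested genes showed in the lower and 16.4% in the higher direction. In bulk RNA, fewer cells expressing a gene and less RNA per cell cannot be told apart.

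**Figure D1:**
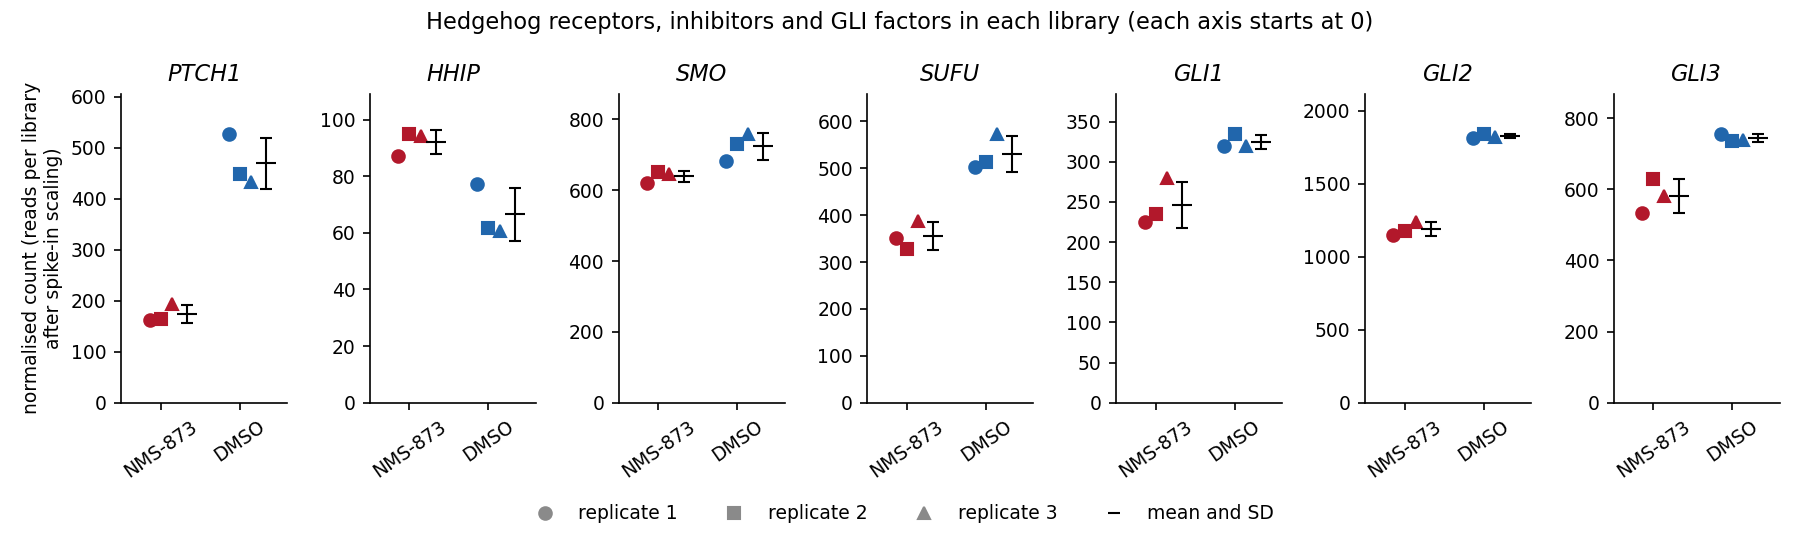
Normalised counts (vertical axes, each from 0) of the 7 genes in each library, NMS-873 in red and DMSO in blue, with marker shapes for replicates and bars for mean and SD. PTCH1 lies between 161 and 193 with NMS-873, under the 433 to 528 with DMSO, and HHIP is the only gene of the 7 with the NMS-873 libraries above those with DMSO.

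PTCH1 (ENSG00000185920.11; chromosome 9, 98205262 to 98279339, minus strand, hg19) encodes the receptor. It had 161, 164 and 193 normalised counts with NMS-873, against 528, 448 and 433 with DMSO. All NMS-873 libraries lay far under the lowest DMSO library, and the spread within DMSO came mostly from replicate 1. The mean was 173 ± 17.7 with NMS-873 and 469 ± 51.0 with DMSO (SD, n = 3 libraries each, as below), so that 36.9% of the DMSO level was left. The log2 fold change was -1.43 (SE 0.0859, adjusted p = 8.21e-41 in limma), which ranked 75 from the lowest among the 14889 genes tested. The means rest on 516 reads with NMS-873 and 1420 with DMSO. A pair of small genes lie within PTCH1 on the opposite strand, RP11-435O5.5 and RP11-435O5.4, with 57 and 18 reads over all 6 libraries.

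HHIP (ENSG00000164161.5; chromosome 4, 145567173 to 145666423, plus strand), the ligand trap, was the member with the lowest count. It had 87.2, 94.9 and 94.1 normalised counts with NMS-873, against 77.1, 61.8 and 60.5 with DMSO. All NMS-873 libraries were above all DMSO libraries, the nearest of these being DMSO replicate 1. Means were 92.1 ± 4.24 with NMS-873 and 66.5 ± 9.24 with DMSO, a log2 fold change of 0.47 (SE 0.142, adjusted p = 0.0032 in limma). The authors' deposited table gives HHIP an adjusted p of 0.0590, above 0.05, at the same log2 fold change of 0.47. HHIP shares 15337 bases with HHIP-AS1, an antisense gene that starts within it, and the sources used here do not give whether counting used strand, so their reads cannot be told apart. HHIP-AS1 was at 32.8 ± 3.17 normalised counts with NMS-873 and 36.0 ± 2.38 with DMSO and did not pass (log2 fold change -0.13, adjusted p = 0.611 in limma).

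SMO (ENSG00000128602.5; chromosome 7, 128828713 to 128853386, plus strand) encodes the membrane protein that PTCH1 restrains. It had 620.5, 651 and 645 normalised counts with NMS-873, against 683, 729 and 759 with DMSO. The groups came close without overlapping, with NMS-873 replicate 2 and DMSO replicate 1 nearest to each other. The log2 fold change of -0.18 (SE 0.0654, adjusted p = 0.0171 in limma) was the smallest of the 7. It was lost when the libraries were scaled to the median of ratios over genes (log2 fold change -0.07, adjusted p = 0.249), without DMSO replicate 3 (-0.14, adjusted p = 0.1001) and without a variance trend (adjusted p = 0.0573), and in the authors' deposited table the adjusted p of SMO is 0.0594.

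SUFU (ENSG00000107882.7; chromosome 10, 104263744 to 104393292, plus strand), the cytoplasmic inhibitor that binds GLI proteins, fell. It had 351, 328 and 388 normalised counts with NMS-873, against 502, 513 and 574 with DMSO. Every NMS-873 library was well under the lowest DMSO library. Its fold change on the log2 scale was -0.57 (SE 0.0746, adjusted p = 4.32e-12 in limma).

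GLI2 (ENSG00000074047.16; chromosome 2, 121493199 to 121750229, plus strand), the main activator of the pathway in most tissues, was the GLI gene with the most reads and the largest fall. It had 1149.8, 1176 and 1241 normalised counts with NMS-873, against 1813, 1842 and 1821 with DMSO. The libraries of each group lay close together, with means of 1189 ± 47.0 with NMS-873 and 1825 ± 14.9 with DMSO. The log2 fold change was -0.62 (SE 0.0567, adjusted p = 1.50e-21 in limma).

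GLI3 (ENSG00000106571.8; chromosome 7, 42000548 to 42277469, minus strand), the main source of the GLI repressor form, had 533, 629 and 580.2 normalised counts with NMS-873, against 756, 735 and 738 with DMSO. The NMS-873 libraries were spread more widely than the DMSO libraries and all lay under them. GLI3 had a log2 fold change of -0.36 (SE 0.0663, adjusted p = 1.09e-06 in limma).

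GLI1 (ENSG00000111087.5; chromosome 12, 57853918 to 57866045, plus strand), the GLI factor that is itself a target of the pathway, had 225, 235 and 279 normalised counts with NMS-873, against 319.8, 335 and 319.5 with DMSO. NMS-873 replicate 3 was the library nearest to the DMSO libraries. The log2 fold change was -0.40 (SE 0.0857, adjusted p = 2.18e-05 in limma), and -0.50 without NMS-873 replicate 3. All members but SMO and HHIP, 5 of the 7, had an adjusted p under 0.05 in the authors' deposited table and were lower, where 22.0% of the 16563 genes with an adjusted p were called lower and 11.2% higher.

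**Figure D2:**
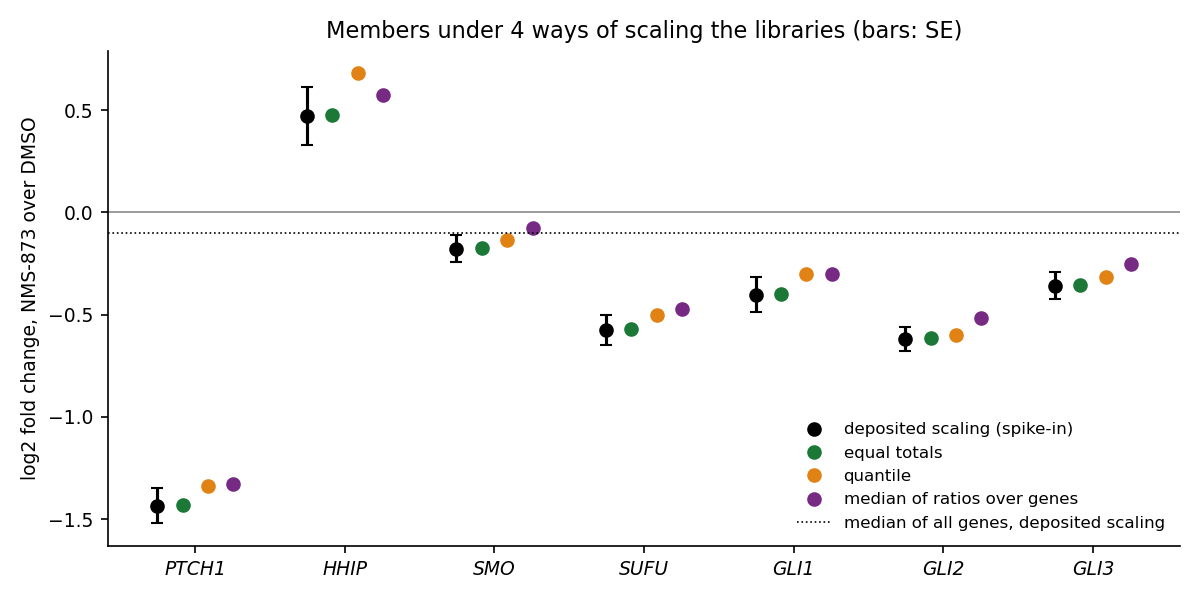
Log2 fold change of each gene, NMS-873 over DMSO (vertical axis), under the deposited scaling to spike-in RNA (black, bars SE) and 3 other scalings. PTCH1 stays between -1.43 and -1.33 and HHIP above 0, while SMO reaches -0.07 when scaled to the median of ratios over genes.

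The deposited values are scaled to spike-in RNA, and the direction of the typical gene depends on that: 2217 genes were called higher and 4910 lower under it, but 3762 higher and 3104 lower with the median of ratios over genes, where the median log2 fold change of all genes was 0.00. Equal totals gave 2473 higher calls and 5319 lower ones. Quantile normalisation gave 3083 higher calls and 4113 lower ones. Under those 3 scalings the members kept their directions, with PTCH1 between -1.43 and -1.33, GLI2 between -0.62 and -0.51, and HHIP between 0.48 and 0.68 on the log2 scale.

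Per transcript length (FPKM, by which levels of different genes can be set side by side), the order with NMS-873 was GLI2 at 7.41 ± 0.293, SMO at 6.78 ± 0.172, GLI3 at 2.88 ± 0.238, GLI1 at 2.68 ± 0.316, SUFU at 2.37 ± 0.201, PTCH1 at 0.477 ± 0.0487 and HHIP at 0.349 ± 0.0161 FPKM. With DMSO it was GLI2 at 11.4 ± 0.0926, SMO at 7.68 ± 0.408, GLI3 at 3.68 ± 0.0555, GLI1 at 3.53 ± 0.0944, SUFU at 3.53 ± 0.257, PTCH1 at 1.29 ± 0.141 and HHIP at 0.252 ± 0.0350 FPKM. GLI3, GLI1 and SUFU overlapped as neighbours with NMS-873, and with DMSO the SUFU libraries ran past both GLI genes. The order of mean levels was the same with both treatments, but GLI2 and SMO, far apart with DMSO, lay close to each other with NMS-873, and so did PTCH1 and HHIP, though neither pair overlapped.

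**Figure D3:**
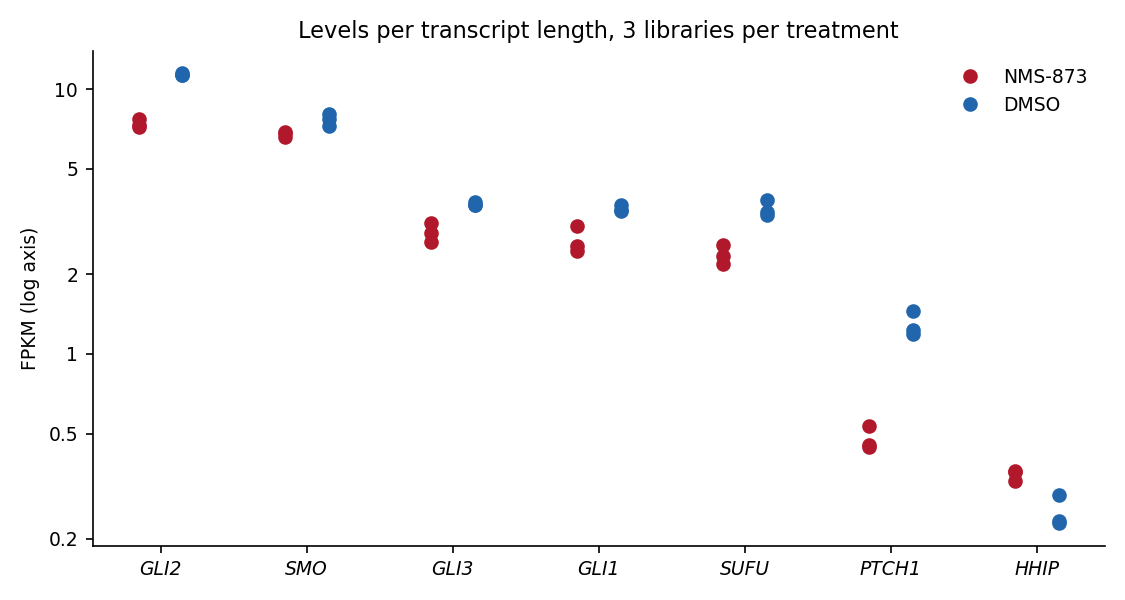
FPKM (log axis) of the 7 genes in each library, NMS-873 in red left of DMSO in blue. PTCH1 with NMS-873 (0.477 on average) comes near HHIP (0.349), where with DMSO the averages were 1.29 and 0.252.

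Ratios taken within a library do not depend on the 1 factor by which each library is scaled, though quantile normalisation can move them. The ratio of PTCH1 to HHIP, the receptor and the ligand trap, was 1.35, 1.26 and 1.495 with NMS-873, against 4.98, 5.27 and 5.20 with DMSO (FPKM). The groups lay far apart, the means differing 3.77-fold. SMO stood at 14.8, 15.2 and 12.8 times the FPKM of PTCH1 with NMS-873, against 4.98, 6.27 and 6.75 times with DMSO, so SMO gained on the receptor that restrains it in every NMS-873 library. Between the targets PTCH1 and GLI1 the ratio was 0.178 ± 0.00342 with NMS-873 and 0.367 ± 0.0444 with DMSO, so that PTCH1 fell further than GLI1. The summed GLI FPKM was 13.0 ± 0.699 with NMS-873 and 18.6 ± 0.1504 with DMSO. GLI2 made up 57.2% ± 1.152 of that sum with NMS-873 and 61.2% ± 0.201 with DMSO, GLI3 22.2% ± 1.56 with NMS-873 and 19.8% ± 0.404 with DMSO, and GLI1 20.6% ± 1.43 with NMS-873 and 19.0% ± 0.354 with DMSO, each without overlap of the groups. The ratio of summed GLI to SUFU, the factors and their inhibitor, was 5.49 ± 0.398 with NMS-873 and 5.29 ± 0.391 with DMSO, and there the groups overlapped.

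The other genes of the pathway were taken from 5 lists by role, 87 genes of which 76 passed the count minimum. Of these, 28 were lower and 11 higher, 36.8% and 14.5% beside 33.0% and 14.9% of all genes tested, with a median log2 fold change of -0.07. With the median of ratios over genes the split was 22 lower and 24 higher and the median 0.04, and after quantile normalisation 22 lower and 16 higher and the median 0.01, so which direction held more calls depended on the scaling.

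Ligands were close to absent from the RNA: SHH had 2 reads over all 6 libraries, IHH 15 and DHH 8. Of the 5 tested genes that acylate, release or carry ligands, 4 did not pass and 1 was lower (20.0%, beside 33.0% of all genes tested). The lower gene was DISP2, a relative of the ligand exporter dispatched. DISP2 was at 92.3 ± 13.8 normalised counts with NMS-873 and 122 ± 10.3 with DMSO (adjusted p = 0.00407 in limma). That call was lost without NMS-873 replicate 2 (adjusted p = 0.0766), with the median of ratios over genes (adjusted p = 0.0504) and after quantile normalisation (adjusted p = 0.124). DISP1 was called higher after quantile normalisation, with the median of ratios over genes and without NMS-873 replicate 1.

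Of 9 tested coreceptors and related genes, 3 were lower (33.3%, beside 33.0% of all genes tested) and 6 did not pass. GAS1, a coreceptor that helps PTCH1 bind ligand, had 7.02, 5.87 and 6.21 normalised counts with NMS-873, against 44.2, 40.9 and 36.7 with DMSO. Its log2 fold change was -2.50 (SE 0.286, adjusted p = 6.32e-15 in limma), at a level of few reads. MGRN1, a ubiquitin ligase that in mouse lowers SMO at the cell surface, did not pass (0.12 on the log2 scale, adjusted p = 0.1001 in limma). The coreceptors BOC and CDON did not pass, at log2 fold changes of -0.13 and -0.02.

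Of 21 tested genes of the primary cilium and of SMO traffic, 2 were higher (9.52%) and 8 lower (38.1%). Of all genes tested, 14.9% were higher and 33.0% lower. With the median of ratios over genes or after quantile normalisation, 5 of the 21 were lower. TULP3, an adaptor that carries receptors into the cilium and restrains Hedgehog signalling in mouse, had 1687, 1796 and 1779 normalised counts with NMS-873, against 855, 798 and 848 with DMSO. It rose 2.10-fold (log2 fold change 1.07, SE 0.0583, adjusted p = 1.26e-46 in limma). CEP164, which docks the basal body, and KIF3B, a motor subunit of transport into the cilium, fell 1.24-fold and 1.18-fold. KIF7, the kinesin that binds GLI proteins at the cilium tip, and GPR161, a receptor that keeps the pathway off, did not pass, at log2 fold changes of 0.02 and -0.02.

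Of 22 genes for GLI kinases and GLI turnover, all tested, 5 were higher and 5 lower, 22.7% each. Of all genes tested, 14.9% were higher and 33.0% lower. The ubiquitin ligase ITCH, which acts on GLI1, rose 1.35-fold, with 2797, 2834 and 2953 normalised counts with NMS-873, against 2120.5, 2098 and 2160.3 with DMSO. CSNK1E, a casein kinase of the pathway, rose 1.29-fold. Named after their values were seen, CSNK1A1, another casein kinase, rose 1.19-fold, and SPOP and SPOPL, adaptors of GLI degradation, rose 1.18-fold and 1.24-fold. DYRK2, a kinase that marks GLI2 for degradation, fell 1.56-fold, to 523 ± 51.1 normalised counts with NMS-873, against 814 ± 23.7 with DMSO. PRKACB, a catalytic subunit of protein kinase A, which prepares GLI proteins for trimming, fell 1.37-fold. The other lower genes of this list, also named after their values were seen, were STK36, PRKACA and SKP1. They fell 1.37-fold, 1.18-fold and 1.11-fold. With the median of ratios over genes 12 of the 22 were higher and 4 lower.

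Of 19 tested transcriptional targets of GLI factors other than the members, 11 were lower (57.9%) and 4 higher (21.1%). Of all genes tested, 33.0% were lower and 14.9% higher. With the median of ratios over genes, 10 of the 19 were lower and 6 higher. These lists were put together with earlier results of the data known, and most of the targets answer to other pathways too. BMP4, a bone morphogenetic protein, had 229, 218 and 229.6 normalised counts with NMS-873, against 887, 904 and 916 with DMSO, a 4.00-fold fall (log2 fold change -1.996, SE 0.0729, adjusted p = 2.20e-75 in limma). CCND1, the cyclin of the G1 phase, fell 2.53-fold, with means of 2436 ± 121 normalised counts with NMS-873 and 6158 ± 278 with DMSO. WNT5A, a secreted signal, fell 1.47-fold. OLIG2, a transcription factor that Hedgehog signalling induces in the neural tube, went the other way, at 354, 372 and 386 normalised counts with NMS-873, against 128.5, 143 and 161 with DMSO (log2 fold change 1.36, SE 0.0920, adjusted p = 1.89e-34 in limma). MYCN was under the count minimum, with 1 read in the 3 NMS-873 libraries and 38 in the 3 DMSO libraries, and was named after its values were seen. FOXC2 and FOXL1 had 0 reads in all 6 libraries, which allows an expected count of up to 3 reads in each library.

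**Figure D4:**
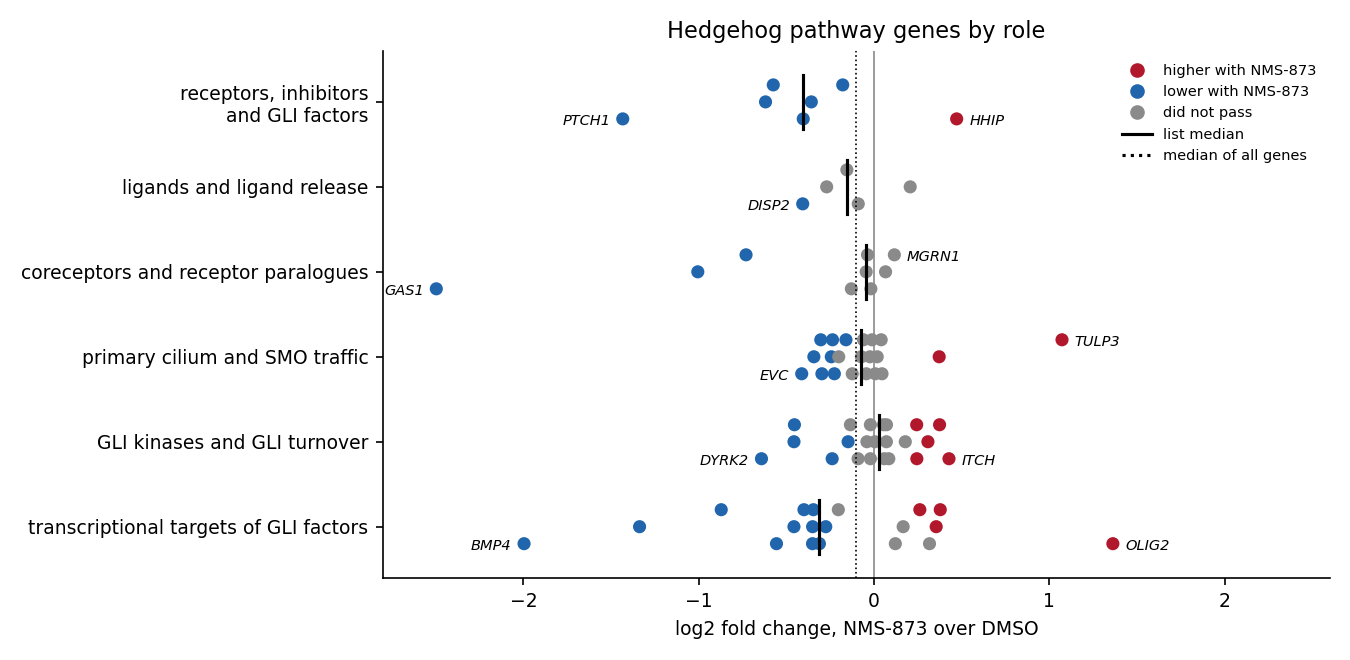
Log2 fold change, NMS-873 over DMSO (horizontal axis), of each tested gene by role, coloured by its call; black bars are list medians and the dotted line is the median of all genes. The members have a median of -0.40 and the other targets of GLI factors one of -0.31. The medians are -0.15 for the ligand genes, -0.04 for the coreceptors, -0.07 for the cilium genes and 0.03 for the GLI kinases. That of all genes is -0.10.

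The genes whose profile over the 6 libraries was nearest to that of PTCH1, by the root mean square difference of centred log2 values, were SIX4 (0.0715), BCL3 (0.0817) and PRICKLE2 (0.0851). SIX4 had 158, 171 and 178 normalised counts with NMS-873, against 508, 434 and 461 with DMSO, close to PTCH1 in level as well. Nearest to HHIP were KLHL28 (0.0223), ZNF324 (0.042) and MSX2 (0.0626). KLHL28 had 478, 521 and 527 normalised counts with NMS-873, against 422, 353 and 342 with DMSO. Like HHIP it was highest among the DMSO libraries in replicate 1, a likeness that its choice by profile brings with it. MSX2 did not pass without DMSO replicate 2 (adjusted p = 0.0719) or DMSO replicate 3 (adjusted p = 0.0616).

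GLI1 lies in a stretch of chromosome 12 with genes that moved far, a comparison made after the values were seen. Of 8 tested genes within 100 kb of GLI1, 5 were higher, 1 was lower and 2 did not pass. Of all genes tested, 14.9% were higher and 33.0% lower. INHBE, a subunit of activin, ends 854 bases before GLI1 begins, and was at 171.5 ± 2.20 normalised counts with NMS-873 and 46.0 ± 7.81 with DMSO, a 3.73-fold rise. DDIT3, the gene of the stress-induced factor CHOP, whose start lies 60.4 kb from that of GLI1, was at 6884 ± 266 normalised counts with NMS-873 and 199 ± 11.9 with DMSO. MIR616 lies within DDIT3, so its reads cannot be told apart from those of its host. MARS, the methionyl-tRNA synthetase, and MBD6 rose 1.18-fold each, and KIF5A fell 1.33-fold. GLI1 thus fell while the nearest tested gene on either side rose. Around SUFU, 5 of 9 tested genes were lower and 4 did not pass, with, among the 5, ACTR1A, which starts 1.26 kb away in the opposite direction and was 1.13-fold lower. Near GLI2 and GLI3 no gene within 100 kb passed the count minimum.

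**Figure D5:**
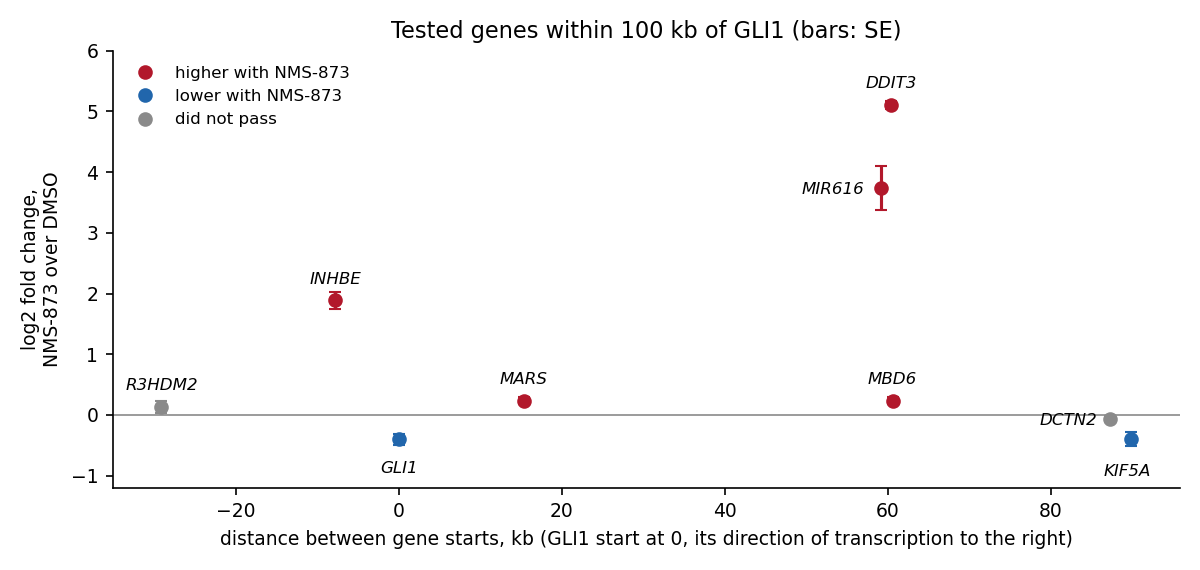
Log2 fold change, NMS-873 over DMSO (vertical axis, bars SE), of the tested genes within 100 kb of GLI1, by the distance between gene starts in kb (horizontal axis). GLI1 lies at -0.40 between INHBE at 1.89 and MARS at 0.23, with DDIT3 at 5.11 some 60.4 kb away.

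Each library held between 21132311 and 22488952 reads in annotated genes, and spike-in RNA took 0.359% to 0.386% of the reads. HSPA5, the main chaperone of the endoplasmic reticulum, was 6.78-fold higher with NMS-873, and VCP itself 1.17-fold higher. Of 10 osteoblast lineage markers, 5 were tested, among them COL1A1, SPARC, RUNX2 and ALPL. Of the 5, 4 were lower (80.0%, beside 33.0% of all genes tested) and 1 did not pass. RUNX2 was at 51.5% of its DMSO level (log2 fold change -0.95, adjusted p = 4.24e-16 in limma). COL1A2, SP7 and BGLAP were under the count minimum, and IBSP and TWIST1 are listed at 0. The summed level of these markers was 78729 to 84645 normalised counts with NMS-873 and 94934 to 97333 with DMSO. COL1A1 weighs heavily in that sum, with 35845 ± 2511 normalised counts with NMS-873 and 48278 ± 1693 with DMSO. Of 5 epithelial markers all were detected, with a sum of 384 to 434 with NMS-873 and 481 to 556 with DMSO. Among them CLDN4 was lower (189 ± 1.72 normalised counts with NMS-873 and 293.5 ± 30.1 with DMSO), and the other 4 did not pass. For 5 blood cell markers (CD3E and HBB among those at 0) the sum was 4.89 to 17.0 with NMS-873 and 9.51 to 20.6 with DMSO. For the 3 endothelial markers matched it was 36.2 to 55.8 with NMS-873 and 26.8 to 31.4 with DMSO. Of these 3, VWF alone was tested and was higher (36.4 ± 11.1 normalised counts with NMS-873 and 20.1 ± 2.29 with DMSO), while CDH5 and KDR were under the count minimum. The part of these shifts in the members' values was not tested.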

How the data were processed

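The submitters' processing notes name hg19, featureCounts 1.5.1 and DESeq2 1.16.1. No aligner is named in the sources used here. The authors deposited 1 table. Its sample columns hold FPKM values: reads per length, scaled with 1 size factor per library, as the values show. Per the file headers it also holds each gene's mean normalised count, a signal in scaled reads, and the log2 fold change and adjusted p-value of the authors' own comparison. The fixed design assumed normalised counts, so these were rebuilt: each gene's FPKM values were brought to its deposited mean. Multiplied by the implied size factors, 100% came within 0.001 of a whole read. Of the 92 spike-in entries, those with reads in all 6 libraries give the same factors by their median of ratios. A change in RNA per cell, or an error in the spike-in amount, would therefore move all genes.

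Genes with a mean of at least 10 (14889 of 57820) entered limma (3.58.1, R 4.3.3). Values were log2(normalised count + 1) and the model held treatment alone, with a variance trend, two-sided tests and Benjamini-Hochberg adjustment over all tested genes. This scale understates changes of low genes. The prior had 251 degrees of freedom, so each gene's spread came mostly from genes of like level. The method was checked on simulated data. Reads carry no molecular identifiers, so read counts and the limit from a count of 0 reflect counting error only.

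Members and lists were chosen with earlier results of these data known. Named by rule were the members, up to 4 list genes with the lowest adjusted p, the 3 nearest profiles (mean at least 50) to the members with the largest rise and fall, and VCP, DDIT3 and HSPA5; other genes were named after their values were seen. Some list genes counted here are not reported by name. Alternatives covered scaling, count minimum, pseudocount, unit, variance trend, voom, a replicate block and leaving out each library. Coordinates of genes are hg19 as deposited; promoter windows are RefSeq, GRCh38.p14.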

Additional observations from a re-analysis of the deposited data

How the results depend on the processing

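Over 16 alternatives the 7 members kept their directions. PTCH1, SUFU, GLI1, GLI2, GLI3 and HHIP passed in each, with an adjusted p of at most 0.0495 for HHIP (log2(FPKM + 0.1)) and 0.0155 for GLI1 (no variance trend), while SMO did not pass in 3. With 1 library left out, log2 fold changes lay between -1.52 and -1.35 for PTCH1, -0.22 and -0.14 for SMO, -0.64 and -0.52 for SUFU, -0.50 and -0.34 for GLI1, -0.65 and -0.60 for GLI2, -0.42 and -0.30 for GLI3, and 0.41 and 0.58 for HHIP; 5 or 6 members were lower and 1 higher, and 1870 to 2406 genes in all were higher and 4005 to 4957 lower. Scaling to the median of ratios over genes changed counts most: 3762 genes higher and 3104 lower, and 24 other pathway genes higher. The correlations of same-numbered libraries' deviations from their group means were 0.0394, -0.0253 and 0.0425. Such deviations also hold counting error, so these values cannot show that the libraries are unpaired. With a replicate block 2352 genes were higher and 5255 lower, and 6 members lower and 1 higher. The values of HHIP rest on 275 reads with NMS-873 and 201 with DMSO, the fewest of the 7 members.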
